A study of Homo sapiens with 3 samples.

Results

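The SP1 summits of human chromosome 19 in H1299 cells were described. They are all the peak summits that the deposited SP1 list places on that chromosome, whatever their score, and they number 628 of 5570, or 11.3% (95% Wilson interval 10.5 to 12.1). A summit is the single base at which a called peak is highest. H1299 is an established line of human non-small cell lung cancer, which the labels call lung adenocarcinoma cells. No treatment, genotype or time is given, and all libraries come from this cell line. The assay was CUT&RUN, in which an antibody tethers a nuclease to its target in the nucleus and the DNA released around the target is sequenced. Of 3 libraries, those for the transcription factor SP1 and for histone H3 acetylated at lysine 27 (H3K27ac) were used, and the negative control IgG library was not analysed here.

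SP1 is a zinc-finger transcription factor that is present in most cell types. It binds GC boxes, short G- and C-rich elements that are common in promoters, above all in the CpG-rich promoters of widely expressed genes. Chromosome 19 is small and carries the densest set of genes of the human genome, among them large clusters of KRAB zinc-finger genes, whose products are mostly repressors of transposable elements. H3K27ac marks active promoters and enhancers.

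Each summit has a deposited score, the −log10 of either a p-value or a q-value, left unstated in the files. The lowest SP1 score in the list was 3.001, and larger scores mean stronger evidence for a peak. The files hold no read counts, so depth is unknown. With 1 library per antibody, no value below has a replicate. The 95% intervals cover counting error only and treat summits, genes or promoters as independent. Neighbours are not independent, nor are several promoters of the same gene. A summit was said to be at a gene end when the first or last base of a protein-coding gene lay at most 1000 bases away in the RefSeq table of GRCh38.p14, the assembly of the summit coordinates. The summits were set beside the 4942 SP1 summits of the other 23 chromosomes and, for a comparison with more equal gene density, beside the 678 of chromosomes 17, 22 and 11. These 3 carry the most protein-coding genes per Mb after chromosome 19.

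To show what the DNA under these summits looks like, the 5 promoters with the highest-scoring summit inside a listed promoter window are printed from the RefSeq promoter table (GRCh38.p14). The table's windows run from 250 bases before to 50 bases after a listed start. Only the 250 bases before the start are shown, in the direction of the gene, and capitals mark GC boxes, which read GGGCGG on the printed strand and CCGCCC where the box lies on the other strand.

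SNRPD2, chr19:45691993-45692242, minus strand: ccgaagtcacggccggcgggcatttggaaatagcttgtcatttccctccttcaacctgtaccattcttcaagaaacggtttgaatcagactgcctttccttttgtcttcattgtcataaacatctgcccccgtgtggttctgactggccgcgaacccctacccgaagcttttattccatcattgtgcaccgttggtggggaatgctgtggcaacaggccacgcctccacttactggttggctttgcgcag

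SNRPA, chr19:40750953-40751202, plus strand: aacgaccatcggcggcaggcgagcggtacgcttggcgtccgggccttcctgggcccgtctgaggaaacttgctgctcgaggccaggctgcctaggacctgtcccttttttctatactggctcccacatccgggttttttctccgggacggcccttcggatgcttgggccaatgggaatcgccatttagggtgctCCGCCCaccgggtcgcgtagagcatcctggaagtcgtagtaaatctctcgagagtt

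PCSK4, chr19:1490351-1490600, minus strand: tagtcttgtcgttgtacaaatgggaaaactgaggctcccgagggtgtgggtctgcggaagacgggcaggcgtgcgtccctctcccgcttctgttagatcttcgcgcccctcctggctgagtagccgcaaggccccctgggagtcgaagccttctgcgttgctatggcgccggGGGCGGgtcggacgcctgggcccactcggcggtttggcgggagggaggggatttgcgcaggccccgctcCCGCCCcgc

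TSEN34, chr19:54191058-54191307, plus strand: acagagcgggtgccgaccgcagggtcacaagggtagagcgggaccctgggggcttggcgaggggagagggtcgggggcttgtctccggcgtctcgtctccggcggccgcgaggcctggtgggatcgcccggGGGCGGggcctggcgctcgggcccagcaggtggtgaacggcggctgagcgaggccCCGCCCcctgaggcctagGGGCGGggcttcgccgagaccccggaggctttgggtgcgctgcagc

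ZNF699, chr19:9309839-9310088, minus strand: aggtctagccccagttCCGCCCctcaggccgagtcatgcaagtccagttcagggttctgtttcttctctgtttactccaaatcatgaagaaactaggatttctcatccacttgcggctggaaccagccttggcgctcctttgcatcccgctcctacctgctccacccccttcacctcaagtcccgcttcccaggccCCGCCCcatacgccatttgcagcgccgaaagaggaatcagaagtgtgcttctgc

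The sequences differ in how many GC boxes they hold. The SNRPD2 stretch holds none of these letters on either strand, although its summit, at base 75 of the printed run, had the highest score of the chromosome, 61.5. SNRPD2 encodes a core Sm protein of the spliceosome. The stretch before SNRPA, which encodes a protein of the U1 spliceosomal particle, holds 1 box, and its summit lies at base 22 with a score of 45.8. The stretch before PCSK4, a proprotein convertase gene, holds 2 boxes, with the summit at base 44 and a score of 40.3. TSEN34 encodes a subunit of the endonuclease that removes tRNA introns. Its stretch holds 3 boxes, with the summit at base 14 and a score of 27.3. The stretch before the zinc-finger gene ZNF699 holds 2 boxes, with the summit at base 71 and a score of 27.1. In all 5 the summit lies upstream of the listed start at which the printed run ends, between positions -237 and -176, and in none does it lie on a box. SNRPD2 and TSEN34 have other listed starts farther out, so that from the outermost start of the gene their summits lie downstream, by 148 bases for SNRPD2.

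Chromosome 19 held more SP1 summits than its share of genes. It carries 1410 of the 19866 protein-coding genes, or 7.10%, against its 11.3% of summits. There were 44.5 SP1 summits per 100 genes on chromosome 19, 26.8 on the other chromosomes together and 23.4 on chromosomes 17, 22 and 11. Chromosome 19 thus stood at rank 2 of 24 by this measure, after chromosome 8 with 46.7. By length it stood first, with 10.7 summits per Mb. Chromosome 17, the next by gene density, had 4.12.

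H3K27ac summits did not share this distribution. Chromosome 19 held 75 of 3201, or 2.34% (1.87 to 2.93). That is 5.32 per 100 genes, against 16.9 on the other chromosomes, and by this measure chromosome 19 stood at rank 22 of 24. By length chromosome 19 was not sparser. Positions within 500 bases of an H3K27ac summit made up 0.128% of its bases and 0.107% of those of the other chromosomes. The numbers of summits in the SP1 and H3K27ac lists depend on depth and on calling, so only each list's distribution over chromosomes is compared.

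Most summits of chromosome 19 lay at gene ends. Of the 628, 405 did, or 64.5% (60.7 to 68.1), against 2051 of 4942 on the other chromosomes, or 41.5%. The difference was 22.99 percentage points (Newcombe interval 18.9 to 26.9). Against chromosomes 17, 22 and 11, where the share was 54.4%, it was 10.07 points (4.74 to 15.3). That contrast was narrower closer to the gene ends, with 6.21 points (0.786 to 11.6) within 500 bases and 2.79 points, whose interval reached 0 (-0.232 to 5.88), within 100. The nearest gene end was within 100 bases for 9.87% of the summits, within 500 for 52.2% and within 2500 for 73.7%. Only 3 summits, 0.478%, lay over 100 kb from any gene end, against 16.9% on the other chromosomes.

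Gene ends also take up more of this chromosome. Positions within 1000 bases of a gene end made up 8.59% of its bases and 2.31% of those of the other chromosomes. The share of summits there was 7.51-fold the share of bases on chromosome 19, 17.99-fold on the other chromosomes and 13.4-fold on chromosomes 17, 22 and 11. By share of summits chromosome 19 stood first of 24, and by this ratio it stood at rank 23.

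Within groups of similar score, the larger share at gene ends was found among the weaker summits. The 5570 SP1 scores were divided into 4 groups of nearly equal size. In the group with the lowest scores 39.0% of chromosome 19 summits and 17.1% of the others were at a gene end, a difference of 21.9 points (10.3 to 34.8). In the next group the shares were 63.5% and 26.3%, a difference of 37.2 points (26.3 to 46.9). The upper groups showed no difference beyond counting error. There the shares were 59.9% against 56.2%, and then 72.1% against 73.5%, with differences of 3.69 points (-4.27 to 11.3) and -1.34 points (-7.14 to 4.08). Chromosome 19 had 49.7% of its summits in the highest group, and the other chromosomes 21.9%. That group had the largest share at gene ends in both sets. The overall difference thus combines differences within groups with a different mix of scores, and their parts were not separated.

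Some summits lay at the ends of several genes. Of the 628, 108 lay at the ends of 2 or more genes, or 17.2%, against 10.1% on the other chromosomes and 18.1% on chromosomes 17, 22 and 11. Among the 405 at a gene end their share was 26.7%, against 24.3% of such summits elsewhere, a difference of 2.34 points (-2.16 to 7.20). A further 266 lay at the end of a single gene whose strand is listed, and 245 of these, 92.1%, were at its start and not its finish. On the other chromosomes that share was 97.0%, a difference of -4.87 points (-8.83 to -1.99).

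Seen from the genes, 438 of the 1410 on chromosome 19 had an SP1 summit at an end, or 31.1% (28.7 to 33.5). The background was 12.5% of the 18456 genes on the other chromosomes and 13.8% over all genes. The difference from the other chromosomes was 18.5 points (16.1 to 21.04), and from chromosomes 17, 22 and 11, at 15.1%, it was 15.99 points (13.3 to 18.8). No other chromosome reached this share, and chromosome 17 came next with 18.7% of its 1157 genes. For H3K27ac the background was 0.851% of all genes, and 5 genes of chromosome 19, 0.355%, had a summit at an end.

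**Figure D1:**
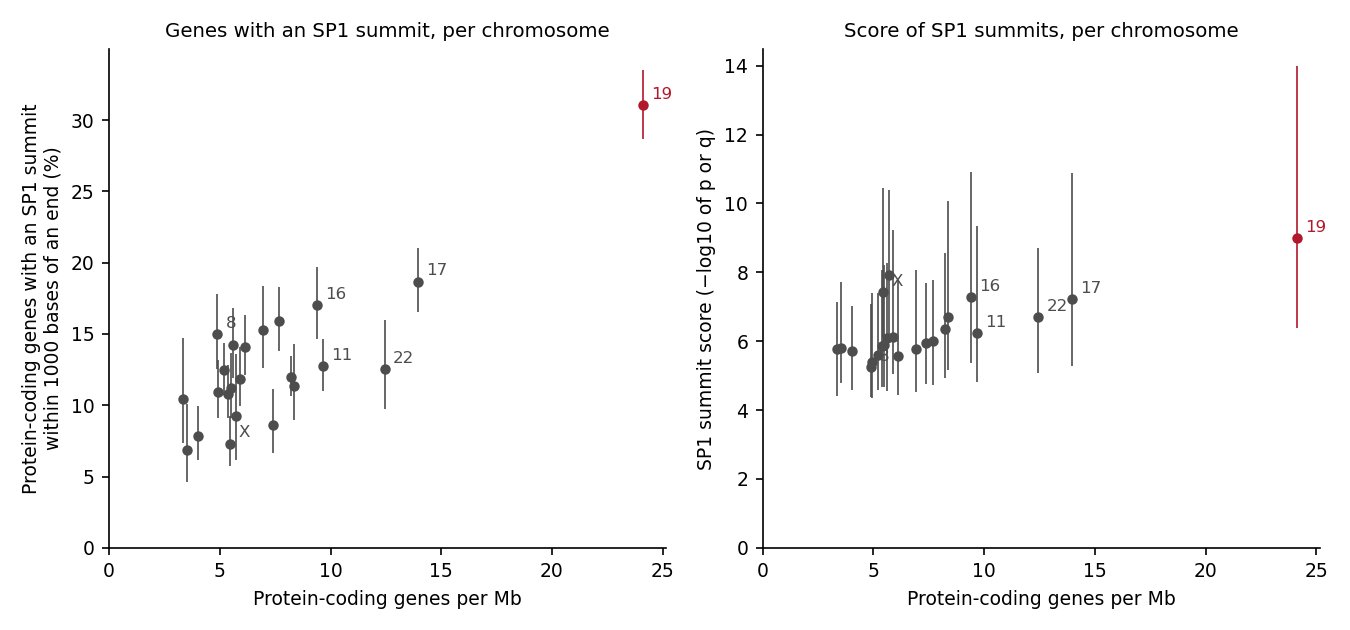
Each point is a chromosome, with protein-coding genes per Mb on the x axis. Chromosome Y, which had 3 SP1 summits, is not drawn. The y axis gives the percentage of genes with an SP1 summit at an end (left, bars are 95% Wilson intervals) and the median score (right, bars are quartiles). Chromosome 19, in red, stands apart at 24.1 genes per Mb, with 31.1% of genes and a median score of 9.003.

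The higher share was not limited to zinc-finger genes. Chromosome 19 has 250 genes whose symbol starts with ZNF, and 78 of them, 31.2%, had a summit at an end, against 50 of 268 on other chromosomes, or 18.7% (difference 12.5 points, 5.10 to 19.9). Among the remaining 1160 genes the share was 31.03%, against 12.4% elsewhere (difference 18.6 points, 15.95 to 21.4). Chromosomes 17, 22 and 11 have 21 ZNF genes, of which 4 had a summit, and the difference from chromosome 19 was within counting error (12.2 points, -9.49 to 25.01).

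Genes were then compared at equal local crowding, counted as the number of other protein-coding genes with an end within 10 kb. The median was 1 such neighbour on chromosome 19 and elsewhere, but 19.01% of its genes had none, against 39.1% elsewhere. Genes with no neighbour had a summit in 18.7% of 268 cases on chromosome 19 and in 7.08% on the other chromosomes (difference 11.6 points, 7.32 to 16.7). With 1 neighbour the shares were 21.2% and 13.1% (difference 8.08 points, 4.41 to 12.2). With 2 neighbours they were 37.4% and 17.8% (19.6 points, 15.3 to 24.1). At 3 or 4 neighbours 97 of 184 chromosome 19 genes, 52.7%, had a summit, against 24.1% elsewhere (difference 28.6 points, 21.04 to 35.99). On chromosomes 17, 22 and 11 the shares in these 4 classes were 4.75%, 14.04%, 20.3% and 30.7%. Only 7 genes of chromosome 19 had 5 or more neighbours, and 6 of them had a summit, against 17.7% of 164 such genes elsewhere (difference 68.03 points, 30.4 to 80.8) and 7 of 21 on chromosomes 17, 22 and 11 (difference 52.4 points, 9.67 to 72.3). The share thus rose with crowding on chromosome 19, while on the other chromosomes together it rose up to 3 or 4 neighbours.

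**Figure D2:**
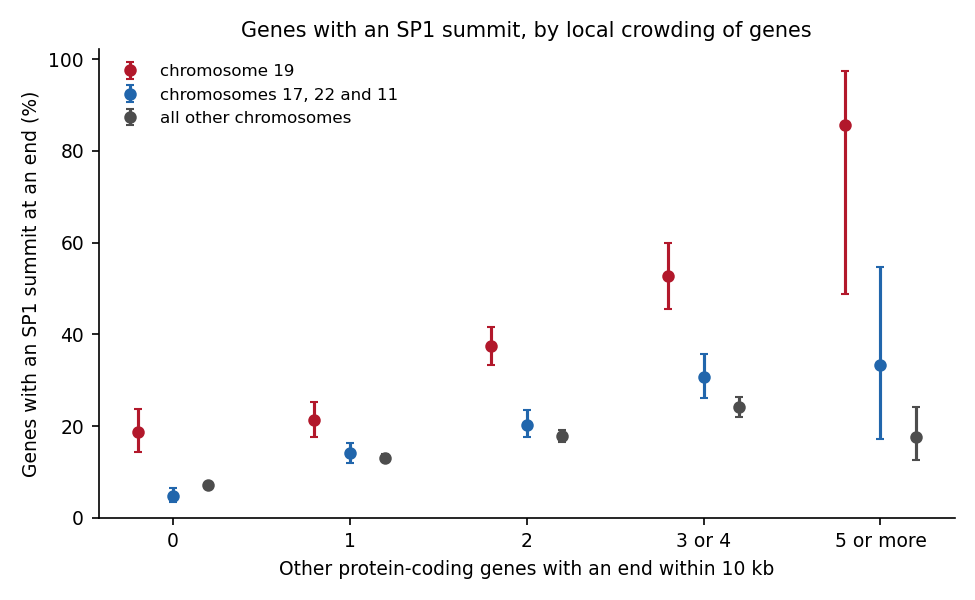
Points give the percentage of protein-coding genes with an SP1 summit at an end (y axis) by the number of other genes with an end within 10 kb (x axis); bars are 95% Wilson intervals. Chromosome 19 rises from 18.7% with no neighbour to 52.7% with 3 or 4, above chromosomes 17, 22 and 11 and all other chromosomes in those classes, and its last point rests on 7 genes.

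The scores of chromosome 19 summits were also higher. They ran from 3.05 to 61.5 with a median of 9.003 (quartiles 6.39 and 13.997), against a median of 6.02 on the other chromosomes. The difference of medians was 2.98 (2.46 to 3.64), and against chromosomes 17, 22 and 11 it was 2.20 (1.60 to 3.01). The shift was present at gene ends and away from them. Among summits at gene ends the medians were 10.1 and 7.92, a difference of 2.16 (1.31 to 2.81). Among those away from gene ends they were 7.57 and 5.21, a difference of 2.36 (1.86 to 3.09). The upper tail shows the same shift. Scores above 10 were reached by 272 summits of chromosome 19, 43.3%, against 17.4% elsewhere. Chromosome 19 held 23.99% of all SP1 summits above 10, 34.6% of the 234 above 20 and 37.0% of the 81 above 30. It held 40 of the 100 highest. The very top was elsewhere, since the highest score of the whole list was 268 and the best of chromosome 19 ranked 12th. Of the 20 highest summits at a gene end, 12 were on chromosome 19.

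**Figure D3:**
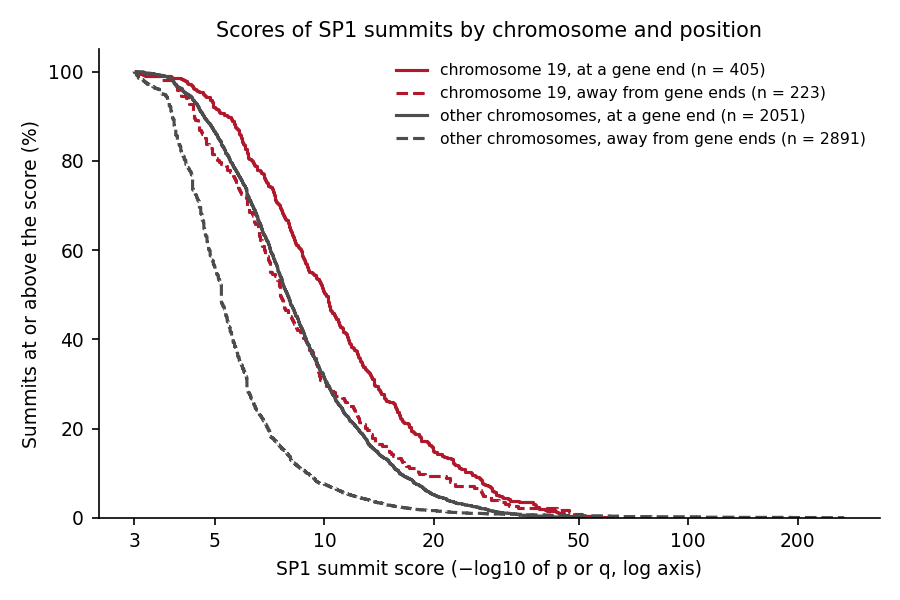
Curves give the percentage of SP1 summits at or above a score (x axis, log scale, −log10 of p or q), for summits at a gene end (solid) and away from gene ends (dashed), on chromosome 19 (red) and the other chromosomes (grey). The curve of chromosome 19 summits away from gene ends, with a median of 7.57, runs close to that of summits at gene ends elsewhere, with a median of 7.92.

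The 10 highest summits fell into those at a start and those inside a gene. After SNRPD2, the next at a start were at OPA3 (54.4), a mitochondrial gene mutated in optic atrophy, and SNRPA (45.8). Then came RPS19, a protein of the small ribosomal subunit, with 45.5 at 304 bases from its start, and SMIM7, a small membrane protein gene, with 43.8 at 66 bases. The summits at SNRPD2 and SNRPA each also lay at the end of a neighbouring gene, QPCTL and ACTMAP. Those outside gene ends included APLP1, a relative of the amyloid precursor protein, with 56.5 inside the gene at 1440 bases from its start and 657 bases from the end of a long noncoding RNA gene. FSTL3, whose secreted product binds activin, had 51.2 inside the gene at 2543 bases from its finish. LYPD3, a cell surface protein gene, had 48.4 at 1925 bases from its start, and PPFIA3, a liprin gene, had 46.9 at 8809 bases. SLC27A1, a fatty acid transporter gene, had 43.6 at 1343 bases inside its span but 414 bases upstream of another listed start. These 10 ranked between 12th and 28th of all SP1 summits. The lowest scores at a gene end were 3.08 at ZNF560, 3.14 at HSD17B14, 3.17 at SIPA1L3, 3.22 at TSSK6 and 3.79 at NXNL1.

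Transcription starts with a strand are listed for 1185 of the 1410 genes, with 1548 starts, and the others were not analysed here. Of the 628 summits, 377 lay within 1000 bases of a listed start, or 60.0%, against 38.1% elsewhere. They flanked the start on both sides. On chromosome 19 57.8% of them were upstream, at a median of -290.5 bases, and the rest downstream, at a median of 134 bases. Of these 377, the median score was 9.75 upstream and 10.2 downstream. The positions fell into a pair of peaks with a dip just before the start. The 100 bases from -300 to -200 held 18.3% of these summits and those from 100 to 200 held 18.04%, while the last 100 before the start held 8 summits, or 2.12% (1.08 to 4.13). On the other chromosomes these intervals held 16.3%, 18.8% and 3.03%, values that lie within the intervals of chromosome 19. For the 898 starts of chromosome 19 with no other listed start within 2000 bases, which had 212 summits, 61.3% (54.6 to 67.6) were upstream, against 66.3% elsewhere. The dip remained there, with 3 summits in the last 100 bases and 67 in the 200 before them.

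**Figure D4:**
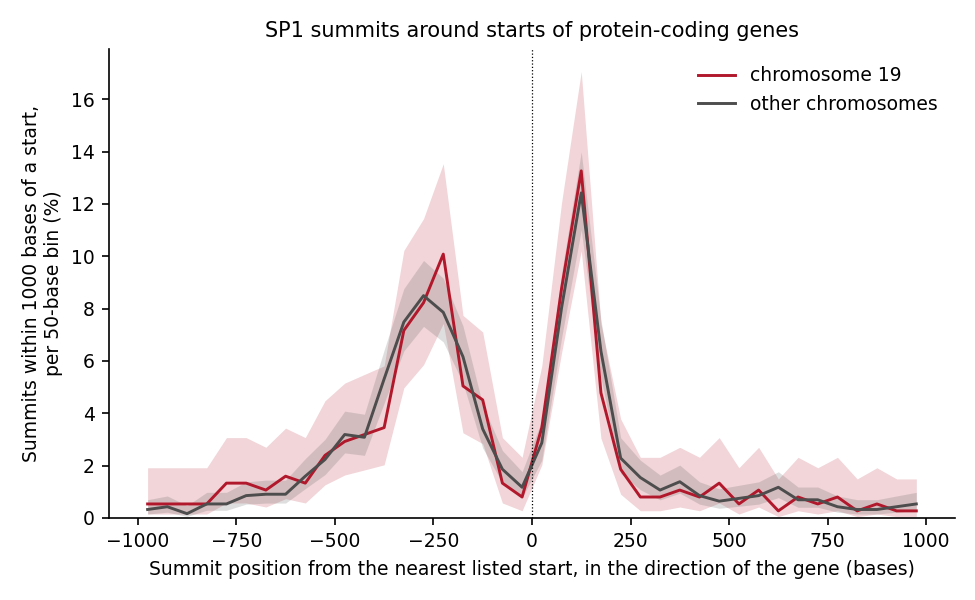
The y axis gives the percentage of summits within 1000 bases of a listed start that fall in each 50-base bin (bands are 95% Wilson intervals), and the x axis gives the position from the start in the direction of the gene. Chromosome 19 (red, 377 summits) and the other chromosomes (grey) both peak upstream between -300 and -200 and downstream between 100 and 200, with a dip before 0.

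The promoter windows were searched for 4 elements, each also as its reverse complement for the other strand. They were the GC box GGGCGG, the CCAAT element bound by NF-Y, the TATA-box core TATAAA and the sequence CCGGAA found in sites for ETS factors. Matches of different elements may overlap. A match is a description and not a binding site. GGGCGG was found in 78.0% of the 473 promoters of chromosome 19 with an SP1 summit within 1000 bases of the start and in 60.4% of the 1075 without, a difference of 17.6 points (12.8 to 22.2). Over all 22183 listed promoters it was found in 56.3%. On the other chromosomes the contrast was wider, with 80.9% against 52.0%, a difference of 28.9 points (27.2 to 30.6). Promoters of chromosome 19 without a summit thus held GGGCGG more often than such promoters elsewhere.

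The other elements moved in different directions. CCAAT was found in 46.7% of chromosome 19 promoters with a summit and 34.3% without (all promoters 34.7%). CCGGAA was found in 35.5% and 22.9% (all promoters 21.2%). TATAAA was rarer with a summit, 3.81% against 7.44% (all promoters 9.47%). The directions were the same on the other chromosomes. There the shares with and without a summit were 41.9% and 33.4% for CCAAT, 30.6% and 19.4% for CCGGAA, and 4.13% and 10.5% for TATAAA. For ZNF promoters of chromosome 19 CCAAT ran the other way, with intervals that overlap slightly. Of 90 ZNF promoters with a summit, from 70 genes, 38.9% (29.5 to 49.2) held CCAAT, against 55.2% (48.0 to 62.3) of 181 without, from 158 genes. CCGGAA was found in 48.9% and 52.5% of them, with intervals that overlap widely.

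The share of promoters with a summit rose with the number of GC boxes up to 3, from a higher base than elsewhere. Promoters of chromosome 19 with no GGGCGG had a summit in 19.6% of 530 cases (16.5 to 23.2), against 5.35% elsewhere. With 1 box the shares were 30.97% and 15.3%, with 2 boxes 35.7% and 17.8%, with 3 boxes 49.3% and 20.4%, and with 4 or more 39.2% and 21.7%. At each number of boxes chromosome 19 was higher, and its intervals did not meet those of the other chromosomes. Base composition gave the same order. Promoters were put into 4 groups by G and C content. In the group with the lowest content 13.7% of chromosome 19 promoters had a summit and 3.83% of others did. In the following groups the shares were 30.3% and 13.8%, 36.7% and 17.9%, and 30.03% and 15.1%. The median G and C content was 64.3% in chromosome 19 promoters with a summit and 62.7% in those without, and the median number of CpG dinucleotides was 26 and 16.

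The distance from a summit to a GC box varied within the windows. A window held the summit in 105 cases, and 79 of these windows, 75.2%, contained GGGCGG. The nearest box lay at a median distance of 97 bases (quartiles 44 and 136.5), and 2 summits, at RAB8A and MAP1S, lay on a box. It was within 50 bases for 25 summits, 31.6% (22.4 to 42.5), while on average 49.3% of the bases of these windows lay that close to a box. Boxes were sought only inside the 300-base windows, and many summits lay near the upstream edge. A nearer box beyond the edge would be missed, so distances can be overstated. For the same reason the 31.6% and 49.3% are not like for like, and no conclusion is drawn from them.

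The chromosome was split at its longest stretch without a protein-coding gene, from 24129969 to 29205319, which is 5.08 Mb long and was taken to separate the arms. That stretch held 2 SP1 summits, with scores of 7.07 and 9.54, and 8 H3K27ac summits. The short arm had 254 summits for 607 genes and the long arm 372 for 803, or 41.8 and 46.3 per 100 genes. Summits were at a gene end in 64.2% and 65.1% of cases, a difference of 0.881 points (-6.65 to 8.54). The share of genes with a summit was 29.7% and 32.1%, a difference of 2.48 points whose interval included 0 (-2.42 to 7.29). Scores differed more clearly. Their median was 7.73 on the short arm and 10.2 on the long arm, a difference of 2.39 (1.52 to 3.05). Each arm on its own was above the other chromosomes, the short arm by 1.71 (1.36 to 2.29) and the long arm by 4.14 (3.44 to 4.73).

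In bins of 2 Mb, summits followed genes. Over the 30 bins of this single library Pearson's r between summits and genes was 0.804 and Spearman's rho 0.728, given as a description. The fullest bin was from 48 to 50 Mb, with 62 summits and a summit at the end of 49 of its 96 genes, the most genes of any bin. Next came the bin from 44 to 46 Mb, with 51 summits and 30 of 68 genes. The bin from 40 to 42 Mb had 39 summits and the highest median score, 12.4. Gene-rich bins could also be sparse in summits. From 54 to 56 Mb 88 genes had 30 summits, and from 50 to 52 Mb, where the kallikrein and SIGLEC genes lie, 68 genes had 12 summits. Zinc-finger clusters differed among themselves. From 8 to 10 Mb 8 of 14 ZNF genes had a summit, from 36 to 38 Mb 12 of 26 and from 52 to 54 Mb 16 of 35. From 20 to 22 Mb 2 of 17 did, from 22 to 24 Mb 0 of 14, and from 56 to 58 Mb 6 of 41.

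**Figure D5:**
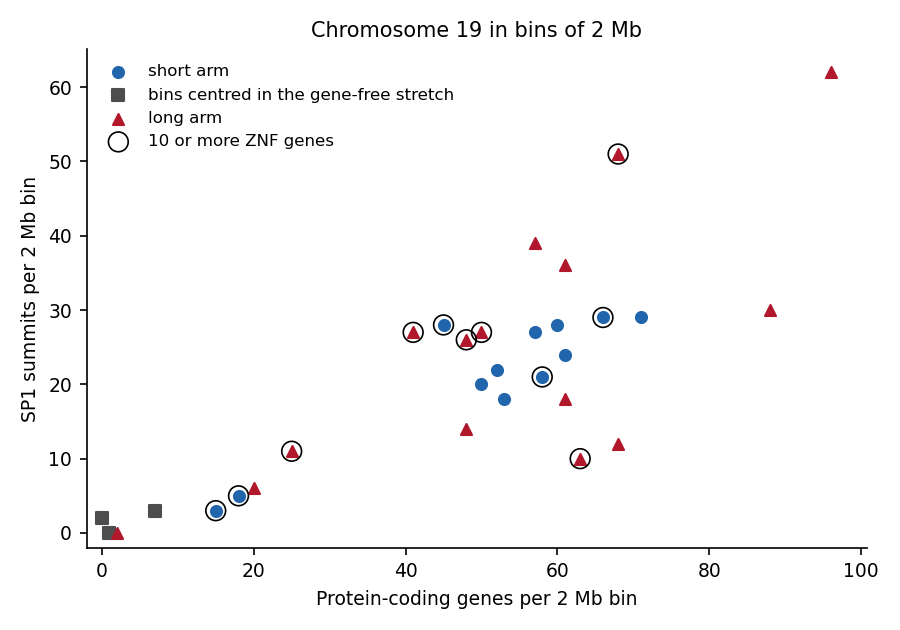
Each symbol is a bin of 2 Mb of chromosome 19, with protein-coding genes on the x axis and SP1 summits on the y axis; rings mark bins with 10 or more ZNF genes. Summits rise with genes, and the bin with 96 genes has 62 summits, while the bin with 88 genes has 30.

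Summits stood close together on this chromosome. The median distance between neighbouring summits was 35191 bases (31136 to 40267), against 214394 on the other chromosomes and 121620 on chromosomes 17, 22 and 11. Distances between neighbouring gene ends differed less, with medians of 10327, 20251.5 and 12406.5 bases. Another summit lay within 1000 bases for 19.6% of the summits, against 9.21% elsewhere, and within 5000 bases for 28.3% against 12%. These neighbours formed 54 pairs and 5 triples, in which the 64 distances ran from 348 to 968 bases with a median of 580. A listed start lay between the summits in 22 of the 64.

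The densest windows of 100 kb held named groups of genes. From 45400001 to 45500000 there were 11 summits with scores from 10.2 to 28.7. They lay at or near PPP1R13L, which encodes an inhibitor of p53 and NF-κB, POLR1G, a subunit gene of RNA polymerase I, the DNA repair gene ERCC1, the AP-1 gene FOSB and RTN2, a reticulon gene. Of the 6 genes placed in that window, ERCC1, FOSB and RTN2 had a summit at an end, and PPP1R13L, POLR1G and PPM1N did not. From 40400001 to 40500000 there were 10 summits with scores from 6.43 to 27.4. SERTAD1 and SERTAD3, genes of transcriptional coregulators, BLVRB, a biliverdin reductase gene, and the spectrin gene SPTBN4 had a summit at an end, and PRX did not. From 48300001 to 48400000 there were 9, with scores from 4.45 to 15.5. Among the 6 genes of that window ODAD1, TMEM143, SYNGR4 and GRIN2D had a summit at an end, GRIN2D at its end beyond the window, and EMP3 and KDELR1 did not.

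Single genes could hold several summits. SPTBN4 and LTBP4, which encodes a binding protein of latent TGF-β, had 5 each, within their span or 1000 bases of it. Those of LTBP4 scored from 11.3 to 22.2 and none lay at an end of the gene, while those of SPTBN4 scored from 4.48 to 14.2. SIPA1L3, EML2 and TMEM143 had 4 each, as did PPFIA3. The only run of 4 summits with steps of at most 5 kb was at EML2, a microtubule-associated protein gene, from 45641597 to 45645826, with scores from 5.71 to 26.5.

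Gene groups of chromosome 19 differed in how many members had a summit at an end, to be read against the 31.1% of all its genes. Among families expressed in few tissues, 5 lists had none. No summit was at an end of the 20 olfactory receptor genes (such as OR10H1 and OR10H2), the 40 leukocyte receptor genes (CD209, CD22), the 22 PSG and CEACAM genes (CEACAM1, CEACAM16), the 15 kallikreins (KLK1, KLK10) or the 12 CYP2 and CYP4F cytochrome genes (CYP2A13, CYP2A6). Together that is 0 of 109. Only lists with a count of 0 are pooled here, so the total was fixed at 0 and no interval is given for it. Of the 4 apolipoprotein genes APOC1 had a summit, with a score of 6.29, and APOC2 and APOC4 did not.

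Genes of general cell functions had more, in lists drawn up with earlier results of these data known. Pooled here were 6 lists, of the ribosome, the respiratory chain, mitochondrial import and ribosome, RNA polymerase II, proteasome and ubiquitin, and splicing. Together 46 of their 80 members had a summit, or 57.5%, against 294 of 917 genes in no list, or 32.1%. As the lists were drawn up with those results known, no interval is given and the contrast is only a description. The list of cell cycle, replication and repair genes, with 7 of 18 or 38.9%, was not pooled with these 6. Splicing and RNA-binding genes had 10 of 15, led by SNRPD2, SNRPA, the arginine methyltransferase gene PRMT1 (37.5) and SF3A2 (15.8), a U2 particle protein, while HNRNPL and HNRNPM had none at an end of the gene. HNRNPL has a summit of 12.3 that lies 210 bases upstream of another of its listed starts. The 10 also include DHPS (14.3), which encodes deoxyhypusine synthase and not a splicing factor. Of the polymerase II machinery and coactivators 12 of 18 had a summit, among them the polymerase subunit POLR2I (22.3), the initiation factor GTF2F1 (16.9), the Mediator subunit MED25 (12.5) and CARM1 (10.9), but not DOT1L. This list also holds genes of other polymerases. POLRMT (9.93), of the mitochondrial polymerase, is among the 12, and POLR1G, of polymerase I, is among those without. POLRMT and DHPS are both counted in the 46 of 80. Mitochondrial import and ribosome genes had 7 of 9, with TOMM40 (29.6), the import pore of the outer membrane, MRPS12 (19.9), MRPL54 (16.3) and MRPL34 (14.8), and not MRPL4 or TIMM29.

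In the respiratory chain list 6 of 14 had a summit, with the complex I genes NDUFA11 (27.2) and NDUFA7 (18.5), the complex III gene UQCR11 (26.7) and the assembly factor ECSIT (21.3), and not ATP5F1D or COX6B1. The NDUFA7 summit lies 11 bases from the finish of the gene and not at its start. Cytosolic ribosomal proteins had 5 of 13, with RPS19 (45.5), RPS16 (12.7), RPS9 (11.2) and RPL28 (9.81), and not RPL13A. Of the proteasome and ubiquitin list 6 of 11 had a summit, with FBXL12 (18.5), the KRAB corepressor TRIM28 (16.02), PSMD8 (9.51) and PSMC4 (5.12), and not RNF126 or UBA2. The shares of the ribosomal list, the respiratory list and the proteasome and ubiquitin list were 38.5% (17.7 to 64.5), 42.9% (21.4 to 67.4) and 54.5% (28.01 to 78.7). Their intervals include the 31.1% of all genes of the chromosome.

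In the lists of regulators and signalling genes the interval of each share included the 31.1% as well. Among AP-1, KLF and related transcription factors 7 of 16 had a summit, with CIC (43.3), a repressor downstream of receptor tyrosine kinases, TEAD2 (31.03), a partner of YAP, RELB (28.7) and ETV2 (17.3), and not ERF or FOXA3. Of the AP-1 and KLF members FOSB (10.9) had a summit at an end, and JUNB, JUND, KLF1, KLF2 and KLF16 did not. The ETV2 summit lies 836 bases from the finish of the gene. Counting only starts of genes with a listed strand, 4 members of this list had a summit. Cell cycle, replication and repair genes had 7 of 18, with LIG1 (29.3) and POLD1 (17.3), which act in DNA replication, and ERCC1 (16.04), and not CCDC8 or CCNE1. Lung cancer and signalling genes had 7 of 20, with CIC, BCL3 (15.8), PIK3R2 (12.8) and AKT2 (11.6), and not AXL or BAX. Among ZNF genes the highest scores were at ZNF808 (38.1), ZNF524 (30.2), ZNF414 (28.9) and ZNF526 (28.1), while ZNF100 and ZNF101 had no summit. The median score over the 78 ZNF genes was 8.30, below the 10.1 of all chromosome 19 summits at gene ends. The first is a median over genes, in which a summit shared by several genes counts for each, and the second is over summits.

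The 223 summits away from gene ends, 35.5% of the 628, were mostly still in or beside genes. Of these, 148 lay inside the span of a protein-coding gene, or 66.4% (59.9 to 72.2), against 46.1% of such summits elsewhere. Another listed start of a protein-coding gene was within 1000 bases of 45, or 20.2%, against 7.44%. An end of another kind of gene, such as a long noncoding RNA, was within 1000 bases of 38, or 17.04%, against 11%.

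The authors also deposited a list of ranked SP1 regions, which carry a rank but not the signal behind it. Chromosome 19 held 125 of 2356, or 5.31% (4.47 to 6.29), less than its share of summits. It held more of the best, with 53 of the first 236, or 22.5% (17.6 to 28.2), and 5 of the first 10. These were at SERTAD1 (rank 1), ERCC1 (rank 2), PRR36 (rank 4), LTBP4 (rank 7) and ETV2 (rank 10), an ETS factor of blood vessel development. The first is 12539 bases long, lies from 40420844 to 40433382, was joined from 2 peaks and holds 4 summits with scores from 6.43 to 22.8. Of the 125 regions 111 consisted of 1 peak. A region held 23.1% of the chromosome 19 summits, against 46.7% of summits elsewhere. Within 2500 bases of a gene end the share was 8.64%, and farther away it was 63.6%, against 4.24% and 84.04% elsewhere. The differences were 4.40 points (1.99 to 7.40) near gene ends and -20.4 points (-28.1 to -13.3) farther away. In both sets the regions held few of the summits near gene ends. The cause of the lower share in regions on chromosome 19 was not tested.

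H3K27ac summits rarely coincided with SP1 summits here. The H3K27ac list reached few gene ends on all chromosomes together, where 169 of 19866 genes, 0.851%, had a summit at an end. Its median score on chromosome 19 was 5.41, and the lowest score in the list was 3.02. Whether SP1 summits without a listed H3K27ac summit lack the mark was not tested. An H3K27ac summit lay within 500 bases of 4 of the 628, or 0.637% (0.248 to 1.63), against 2.63% elsewhere (difference -1.99 points, -2.61 to -0.922). Positions that close to an H3K27ac summit made up 0.128% of the bases of chromosome 19 and 0.107% of those of the other chromosomes. None of the 4 was at a gene end. Those at 39878537, 39879008 and 39890870 lay inside FCGBP, a gene for a mucin-like secreted protein, with SP1 scores of 13.5, 9.10 and 7.78. The H3K27ac summits beside them scored 6.93 and 9.47. The fourth, at 27339416 in the gene-free stretch, had an SP1 score of 7.07 and an H3K27ac score of 5.47, and its nearest protein-coding gene was UQCRFS1. Of the 75 H3K27ac summits of the chromosome 5 were at a gene end, or 6.67% (2.88 to 14.7), against 4.61% elsewhere, and their highest score was 9.47.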

How the data were processed

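Per the labels, CUT&RUN libraries of H1299 cells were made with a commercial kit, 1 library per antibody. The authors deposited summit lists, whose score is −log10 of either a p-value or a q-value, and region lists with a rank. The submitters' processing notes name the build hg38 and the tools cutadapt 2.5 and deepTools 3.4.1. Which aligner and which peak caller, settings and control were used is not given in the sources used here. Depth is unknown, so the precision of counts cannot be tied to reads.

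Here, summits were read as 1-based positions and set against gene spans of the RefSeq table (GRCh38.p14). Strands and promoter sequences came from the RefSeq promoter table, which lists starts for 1185 of 1410 genes of chromosome 19. Of 20037 protein-coding rows in the gene table, 1451 of them of chromosome 19, those that break the sorted order of their chromosome, as rows of alternate or unplaced scaffolds do, were left out (171 and 41 rows). Sequence outside the promoter table, and the IgG library, were not used here. Chromosome 19 was compared with all other chromosomes, and with the 3 next in genes per Mb, chromosomes 17, 22 and 11. Shares have 95% Wilson intervals, differences of shares Newcombe intervals, and medians intervals from order statistics. No p-value was computed, since no group has a replicate. Scores were compared only within a list. Calculations used Python 3.11.15, numpy 2.4.6, pandas 2.3.3, SciPy 1.17.1 and matplotlib 3.10.9 and were tested on simulated data. The alternatives tried were stricter scores, other windows, other gene sets, leaving out close or remote summits, each arm alone, and every row of the gene table.

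The summits and the 16 gene lists were chosen with earlier results of these data known. The genes named are those of the 10 highest summits and the 5 lowest at a gene end, the 5 genes with the most summits, the 3 densest windows of 100 kb, the regions of chromosome 19 among the first 10, and the summits beside H3K27ac. From each list they are up to 4 members with a summit, highest score first, and up to 2 without, in alphabetical order. Some genes that this rule names are not reported here. QPCTL, ACTMAP, RAB8A, MAP1S, POLRMT, DHPS, JUNB, JUND, KLF1, KLF2 and KLF16 were added after their values were seen. So were PPFIA3 as a gene with 4 summits and FOSB as a list member.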

Additional observations from a re-analysis of the deposited data

How the results depend on the processing

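No paired analysis was possible because each antibody has a single library. Of 183 recomputed values, 147 kept to the reported one, which for a difference means the same direction and side of 0, for a count less than a 1.5-fold change and for any other value staying inside the reported interval. With summits above the median score, the excess at gene ends over the other chromosomes was 3.46 points (-1.24 to 7.94). Above the upper quartile it was -1.34 points. Among the stronger summits alone no excess was thus seen beyond counting error. The excess over all summits also includes the different mix of scores on chromosome 19, and its cause was not tested. The other differences, of the share of genes and of the median score, kept their direction and excluded 0 under every alternative run on them. Above the median score, chromosome 19 held 17.4% of summits, 25.4% of its genes had a summit, the median spacing was 43048 bases and 19.4% of summits lay in an SP1 region. Above the upper quartile these values were 22.4%, 18.2%, 53828 bases and 17.3%, with 72.1% of summits at a gene end, 22.1 summits per 100 genes, 31.4% of summits on the short arm and 77 list members with a summit in place of 146 (144 genes, since CIC and ERCC2 are in 2 lists). A window of 500 bases put 52.2% of summits at a gene end, 9.87% at the ends of several genes, 25.96% of genes with a summit and 1.33% of H3K27ac summits at a gene end. A window of 2500 bases gave 73.7%, 28.2% and 35.7% for the first 3 of these. Fewer summits or another window change these counts by construction. Genes of every kind gave 70.5% at an end and 29.6% at several, the start of a gene alone gave 53.7%, and any listed start gave 60.0%. Without summits over 100 kb from a gene end, chromosome 19 held 13.2% of SP1 summits. With every row of the gene table, scaffold rows included, 30.2% of genes had a summit and the difference from the other chromosomes was 17.7 points. This alternative, each arm alone and any listed start were chosen after seeing the data. At the level of lists, 86 of 96 recomputed counts stayed within 1.5 times the reported one, and the leukocyte receptor, PSG and CEACAM, kallikrein and cytochrome lists stayed at 0, while 1 olfactory receptor gene had a summit within 2500 bases. Unknown depth limits what a missing summit shows.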
